A study of Mus musculus with 4 samples.

Results

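The genes described here were the regulatory T cell genes Foxp3, Tnfrsf18, Ikzf2, Nrp1, Itgae and Ctla4 and 3 features annotated on the strand opposite one of them. Ccdc22 and Gm36995 lie opposite Foxp3, and Gm16008 lies opposite Tnfrsf18. In all they are 9 of the 50600 genes in the deposited tables. The 9 were chosen by name with their counts in these 4 libraries in view, so their levels and the ratios within each locus are given as a description with no test. The material was T-helper 2 primary cells from C57BL/6NJ mice, with 4 biological replicates in 1 group, and no genetic change, control or other cell type is given in the labels. Sex was not collected, age is unknown, and all 4 libraries share 1 donor record, so the spread between them may not include the spread between animals. The assay was RNA-seq of bulk cells, in which fewer cells of a type and less RNA per cell cannot be told apart.

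FOXP3 is the transcription factor that defines regulatory T cells, the CD4 T cells that restrain other T cells. Its gene lies on chromosome X, and its RNA is the usual mark of the lineage. GITR (Tnfrsf18), CTLA-4, neuropilin-1 (Nrp1), integrin alpha E (Itgae) and the zinc finger factor Helios (Ikzf2) are carried by many regulatory T cells, and GITR and CTLA-4 are also raised on other activated T cells.

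The libraries held 1804217, 1846441, 2711948 and 2169955 counted fragments in replicates 1 to 4, and 3 counts, up to which a true level may lie where 0 was counted, corresponded to 1.66, 1.62, 1.11 and 1.38 counts per 1000000 (CPM). The ribosomal RNA gene CT010467.1 took 28.6% of the counts of replicate 3 and 14.4% of those of replicate 4, with 776235 and 312900 counts, against 18450 and 21080 in replicates 1 and 2. Tsix had 4004 and 3437 counts in replicates 1 and 2 and 7 and 2 counts in replicates 3 and 4, although the donor record is shared. Xist had 85, 94, 8 and 2 counts in replicates 1 to 4. Of the markers of other cells, the 3 Th1 genes summed to between 0 and 1 counts per library, the 4 Th17 genes to between 1 and 3, the 2 CD8 T cell genes to between 3 and 4, and the 3 NK cell genes to 0. Among 4 B cell markers only Cd79a had counts, 9 to 15, and among 4 macrophage and monocyte markers only Csf1r had counts, 983 to 1026, and its exons are overlapped on the other strand. Th2 markers summed to between 226 and 354 counts, most of them in Ptgdr2, whose exons are overlapped on the other strand as are those of Gata3 and Il5, with Il1rl1 at 0 and 1 count each of Il5 and Il13 over all 4 libraries. The 7 T cell markers summed to 155, 205, 155 and 47 counts in replicates 1 to 4, lowest in replicate 4. Among them Trac had 19, 30, 27 and 2 counts, so markers of the T cells themselves were low too. Sums near 0 therefore do not show that other cells were absent.

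A fragment was assigned by strand under the setting given in the file headers, and the orientation of the libraries is not given in the sources used here. A gene is called overlapped here where its exons have bases in common with an exon of the opposite strand, and free where they have none. Overlapped genes number 8189 of 50600, and they held 92.9%, 92.2%, 94.4% and 95.9% of the counts in replicates 1 to 4. Pairs of a protein-coding gene and a gene annotated as antisense, with at least 50 shared exon bases and a mean summed count of at least 10, numbered 851. The antisense gene was the higher in all 4 libraries in 704 of these pairs (82.7%) and the lower in all 4 in 116 (13.6%). Each value above and below is therefore the count of a feature on the strand counted, and it is not read as the amount of RNA made by that gene. Were the libraries of the opposite orientation, which was not tested, the Foxp3 counts would be of RNA from the minus strand, where Ccdc22 and Gm36995 lie, and the Gm16008 counts of RNA from the plus strand, where Tnfrsf18 lies. The shares, ratios and order of levels below would then be those of the facing strands. Counts of free genes would then be of RNA from the strand that faces their exons, where no exon is annotated. Of the 9 members, 6 are overlapped (Foxp3, Ccdc22, Gm36995, Tnfrsf18, Gm16008 and Ikzf2) and 3 are free (Nrp1, Itgae and Ctla4).

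The bases shared between strands differed in kind from locus to locus. The stretches at Tnfrsf18 and Ikzf2 are shown because they are coding on one strand and lie in an exon of another feature on the opposite one, so that strand alone assigns a fragment there. Capitals mark the bases shared with the opposite feature, lower case marks the adjoining bases of the same transcript, and both are written 5′ to 3′ from the GENCODE M21 transcripts on GRCm38, the same assembly as mm10. The Tnfrsf18 stretch is coding sequence of exon 1 at chr4:156026387-156026537 on the plus strand, with 151 shared bases. It is the coding part of a shared block of 334 bases, whose other bases are not coding. The Ikzf2 stretch is exon 7 at chr1:69542227-69542370 on the minus strand, with 144 shared bases.
Tnfrsf18, shared with Gm16008: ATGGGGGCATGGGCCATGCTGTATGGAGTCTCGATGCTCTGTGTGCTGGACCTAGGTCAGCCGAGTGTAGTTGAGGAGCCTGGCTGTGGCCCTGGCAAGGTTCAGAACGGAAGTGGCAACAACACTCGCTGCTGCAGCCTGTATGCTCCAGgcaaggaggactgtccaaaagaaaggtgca
Ikzf2, shared with Gm29114: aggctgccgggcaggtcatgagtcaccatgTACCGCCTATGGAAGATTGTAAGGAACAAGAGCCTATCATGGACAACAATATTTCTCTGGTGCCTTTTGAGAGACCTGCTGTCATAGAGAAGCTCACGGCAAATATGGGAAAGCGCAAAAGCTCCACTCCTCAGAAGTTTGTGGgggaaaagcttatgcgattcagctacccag
At Foxp3, by contrast, all of the shared bases lie in the 3′ UTR of Foxp3 as GENCODE M21 annotates it, although its exons in that release are not the same as those counted, and on the Ccdc22 side 342 of the bases are coding and 248 are UTR.

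Foxp3 (ENSMUSG00000039521.12, chrX:7579676-7595243 of mm10, plus strand, 3989 exon bases) had 718, 730, 706 and 601 counts in replicates 1 to 4. Its level per exon length was 125 ± 24.1 transcripts per 1000000 (TPM; SD, n = 4), rank 999 of all genes. Replicate 4 had the lowest count, and the 4 counts lay close together. In CPM the libraries stood at 398.0, 395.4, 260.3 and 277.0, with a coefficient of variation of 22.3%. With CT010467.1 left out of the totals, a scaling added after the data were seen, they stood at 402.1, 399.9, 364.7 and 323.6 CPM, and the coefficient of variation was 9.89%.

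Ccdc22 (ENSMUSG00000031143.4, chrX:7593809-7605517, minus strand), which encodes a subunit of an endosomal recycling complex, had 5, 1, 5 and 15 counts. Its highest count was in replicate 4, where that of Foxp3 was lowest. Gm36995 (ENSMUSG00000103436.1, chrX:7558602-7605381, minus strand), a processed transcript that runs across the whole Foxp3 gene, had 0, 0, 0 and 1 counts. The features opposite Foxp3 were thus close to the counting limit in replicates 1 to 3.

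The opposite side of the Foxp3 locus took 0.692%, 0.137%, 0.703% and 2.59% of the summed counts of Foxp3, Ccdc22 and Gm36995. The exact Clopper-Pearson 95% interval was 1.49% to 4.18% in replicate 4 and 0.00346% to 0.760% in replicate 2, and these intervals cover counting error only. The log2 ratio of Foxp3 over both features, with a prior count of 0.5, was 7.03, 8.93, 7.01 and 5.19, with a mean of 7.04 ± 1.53 (SD, n = 4).

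The exon layout limits what the Ccdc22 count can hold. Of the exon bases of Foxp3, 590 overlap Ccdc22, and 373 of those overlap Gm36995 too, and 3399 of 3989 face no minus-strand exon. Ccdc22 shares 2957 of its 3427 exon bases with Gm36995 on the same strand, and the counting command in the headers gives no option to count a fragment that falls on 2 genes. Fragments there were therefore counted for neither, and 470 bases of Ccdc22 lie outside Gm36995. Gm36995 likewise shares 2415 of its 5727 bases with Ppp1r3f on the same strand. On the plus strand Foxp3 shares 267 bases with Flicr, a noncoding RNA that is known in mice to lower Foxp3 expression, and Flicr had 27, 23, 25 and 25 counts.

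**Figure D1:**
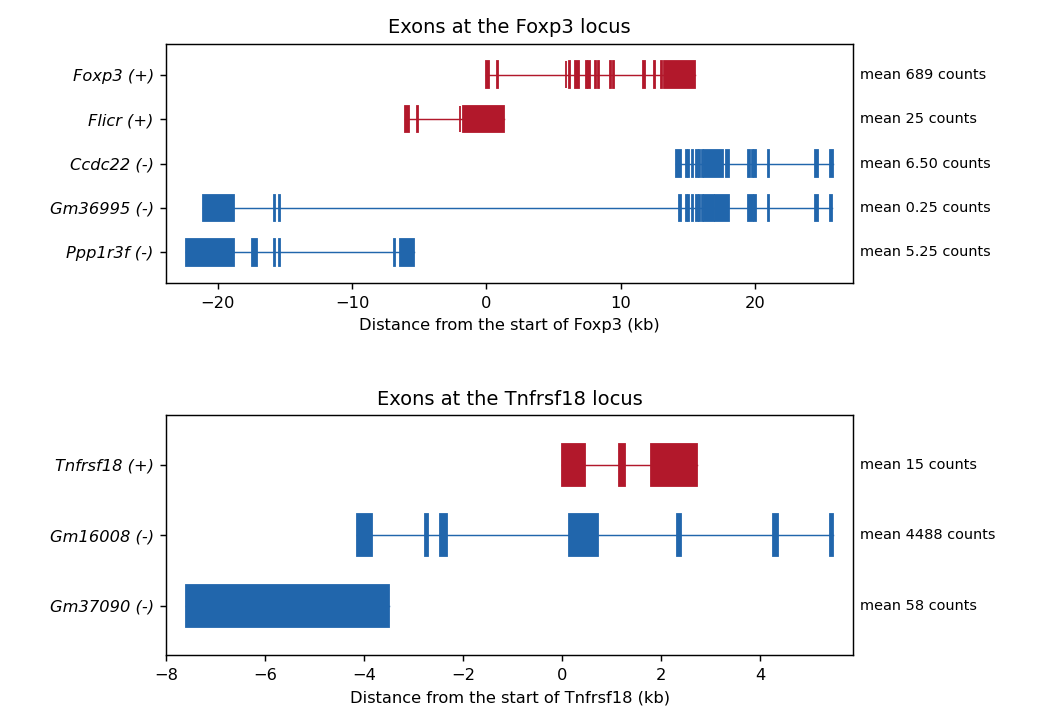
Exons of the genes at the Foxp3 and Tnfrsf18 loci, drawn to scale as distance from the start of the named gene (kb), with plus-strand genes in red, minus-strand genes in blue and the mean count of the 4 libraries at the right. Foxp3 has a mean of 689 counts and Ccdc22 6.50, while Tnfrsf18 has 15.25 (drawn as 15) and Gm16008 4488.

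The neighbours of Foxp3 showed no single level. Ppp1r3f, on the other strand from Flicr with 310 shared bases, had 6, 5, 5 and 5 counts. Prickle3, 62017 bases above Foxp3, had 258, 267, 259 and 247 counts, and Plp2 opposite it had 10, 5, 12 and 17. Syp had 5, 2, 2 and 3 counts, and Gm14703 opposite Syp had 20, 16, 22 and 25. The other 5 neighbours named by position (2010204K13Rik, Gm14379, Usp27x, Clcn5 and Magix) had at most 5 counts in any library.

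At the GITR locus the strands stood the other way. Tnfrsf18 (ENSMUSG00000041954.18, chr4:156026164-156028895, plus strand, 1524 exon bases) had 16, 17, 14 and 14 counts, or 7.27 ± 1.66 TPM (SD, n = 4). Gm16008 (ENSMUSG00000087381.8, chr4:156022008-156031643, minus strand, 1324 exon bases in 7 blocks), annotated as antisense, had 4160, 4678, 4636 and 4479 counts, or 2434 ± 305 TPM (SD, n = 4), rank 58 of all genes. Every library had more counts on Gm16008 than on Tnfrsf18, an order shared by the 82.7% of coding and antisense pairs given above.

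Tnfrsf18 took 0.383%, 0.362%, 0.301% and 0.312% of the counts of this pair. The log2 ratio of Tnfrsf18 over Gm16008 was -7.98, -8.06, -8.32 and -8.27, with a mean of -8.16 ± 0.16 (SD, n = 4). The SD of this ratio was smaller than the 1.53 of the Foxp3 locus, where the minor side rests on 1 to 16 counts. Gm16008 shares 414 exon bases with Tnfrsf18, in blocks of 334 and 80 bases that include the coding stretch printed above, and 910 of its bases lie outside Tnfrsf18. It also shares 305 bases with Gm37090 on its own strand, which had 79, 57, 60 and 37 counts.

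Of the genes beside Tnfrsf18, Tnfrsf4, which encodes the costimulatory receptor OX40, had 22, 22, 17 and 1 counts, and Sdf4 had 30, 29, 30 and 7. Both are free genes, and both had their lowest count in replicate 4. B3galt6 had 14, 17, 20 and 57 counts and Perm1 had 112, 82, 97 and 124, with their highest count in replicate 4. The other 5 neighbours (C1qtnf12, Ttll10, Mir200a, 9430015G10Rik and Plekhn1) had at most 10 counts in any library.

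Set beside all loci of this kind, both pairs had a ratio of counts above the median in size. Of 2673 pairs of genes on opposite strands with at least 50 shared exon bases and a mean summed count of at least 10, the median size of the log2 ratio was 4.57. Foxp3 over Ccdc22 alone had a mean of 7.06, and 15.7% of the pairs were more unequal. Ccdc22 shares 2957 of its 3427 exon bases with Gm36995, where fragments were counted for neither, and only 470 lie outside it. The ratio of 7.06 and its place may therefore be too high, and no ratio was corrected for such losses. For Tnfrsf18 and Gm16008 the share of more unequal pairs was 7.63%. These pairs were chosen with their counts known, so the percentages place them and test nothing.

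**Figure D2:**
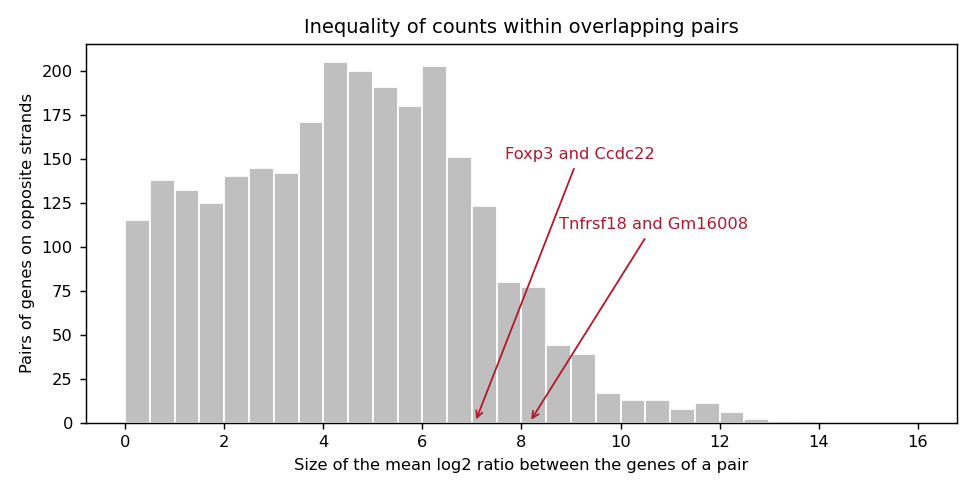
Histogram of the size of the mean log2 ratio between the genes of each of 2673 pairs on opposite strands (bins of 0.5, y axis in pairs), with arrows at Foxp3 and Ccdc22 (7.06) and at Tnfrsf18 and Gm16008 (8.16). Both arrows lie above the median of 4.57. That of Foxp3 and Ccdc22 may lie too high, as fragments on most exon bases of Ccdc22 were not counted for it.

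Ikzf2 (ENSMUSG00000025997.13, chr1:69531214-69687245, minus strand, 11613 exon bases), which encodes Helios, had 0, 1, 1 and 0 counts. Gm29114, which shares the 144 printed bases from the plus strand, had 6, 7, 7 and 5 counts. The feature opposite Ikzf2 was thus higher in every library, on counts of 7 or fewer. Ikzf2 stayed under the limit of 3 counts throughout.

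The 3 free members covered a range of levels. Nrp1 (ENSMUSG00000025810.9, chr8:128358604-128503363, plus strand, 9785 exon bases), a coreceptor for semaphorins and vascular endothelial growth factor, had 149, 150, 145 and 155 counts, or 11.02 ± 1.59 TPM (SD, n = 4). Its raw counts were the most even of the 9 members. Its CPM had a coefficient of variation of 18.6%, where counting error alone would give 8.27%. With CT010467.1 left out of the totals the coefficient of variation was 5.07%, and that of Gm16008 was lower, at 4.07%.

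Itgae (ENSMUSG00000005947.11, chr11:73090583-73147446, plus strand, 4581 exon bases), whose product pairs with integrin beta 7 and binds E-cadherin, had 60, 42, 54 and 71 counts, or 8.86 ± 1.93 TPM (SD, n = 4). Replicate 4 was the highest and replicate 2 the lowest. Haspin, a kinase gene that lies within the span of Itgae on the other strand, shares 0 exon bases with it and had 5, 13, 9 and 3 counts.

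Ctla4 (ENSMUSG00000026011.13, chr1:60887000-60915832, plus strand, 2330 exon bases), the inhibitory receptor for CD80 and CD86, had 9, 15, 12 and 2 counts, or 2.98 ± 1.86 TPM (SD, n = 4). Replicate 4 fell under the limit of 3 counts while the other libraries were above it. Its relatives in the same cluster were also lowest in replicate 4, with 19, 45, 32 and 1 counts of Cd28, the costimulatory receptor for the same ligands, and 6, 8, 10 and 0 of Icos. Low values there were common: 55.9% of free genes were lower in replicate 4 by the measure given below and the T cell markers were lowest there too. Gm11579, nearest below Ctla4, had 50, 36, 37 and 35 counts, and Ino80d had 19, 24, 6 and 16. The other 6 neighbours by position (Gm37198, Eif4a-ps4, Raph1, Pard3b, Pard3bos1 and Rps27-ps1) had at most 8 counts in any library.

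**Figure D3:**
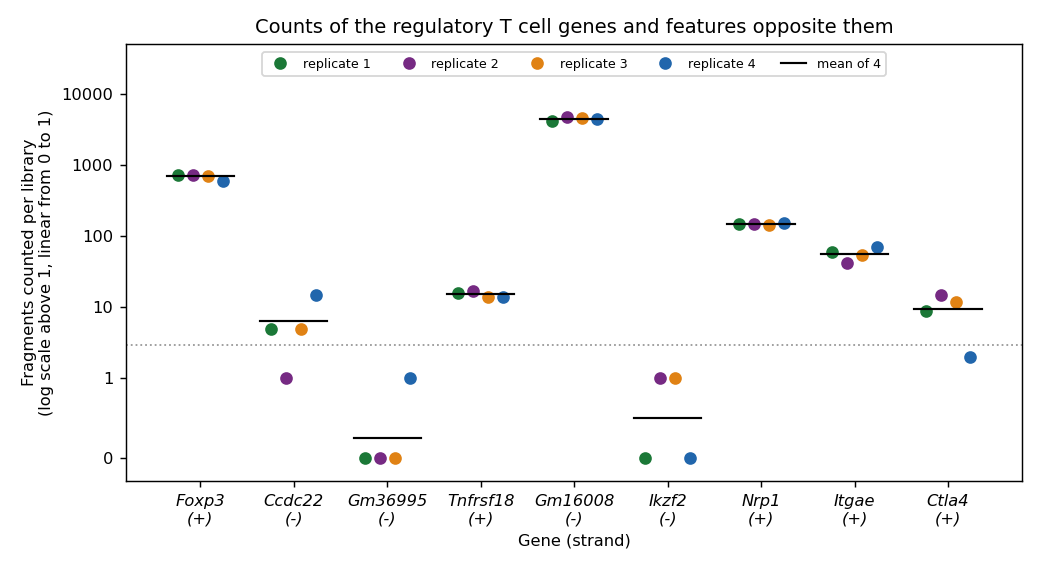
Fragments counted for each of the 9 members in replicates 1 to 4 (points) with the mean (bar), on a log scale above 1 and a linear scale from 0 to 1. The dotted line is 3 counts. Gm16008 stands between 4160 and 4678, Foxp3 between 601 and 730, and Ctla4 has 2 counts in replicate 4 against 9 to 15 in the others.

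In mean TPM, which takes exon length into account, the order was Gm16008, Foxp3, Nrp1, Itgae, Tnfrsf18, Ctla4, Ccdc22, Ikzf2 and Gm36995. The lengths of Ccdc22 and Gm36995 include 2957 bases that they share, where fragments were counted for neither. Only 470 of the 3427 exon bases of Ccdc22 lie outside Gm36995, so the TPM and the place of Ccdc22 may be too low. Nrp1 (8.93 to 12.4 TPM) lay above Itgae (7.10 to 10.6 TPM) in every library, although their ranges overlapped. The range of Itgae also overlapped that of Tnfrsf18 (5.54 to 8.84 TPM), and Tnfrsf18 was the higher of these in replicate 2. Ctla4 (0.577 to 5.10 TPM) lay below Tnfrsf18 in every library and overlapped Ccdc22 (0.231 to 2.94 TPM). Ikzf2 and Gm36995 were both under the counting limit, and their order carries no information.

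Replicate 4 stood apart from the other libraries at free genes, and the free members were not alike in it. Where replicates 1 to 3 each had at least 10 counts of a gene, replicate 4 was more than 1 below the mean of the others in log2 CPM for 55.9% of free genes (1183 of 2115, median -1.24) and for 10.4% of overlapped genes (347 of 3348, median -0.06). Of the members, 5 met that limit and 0 were lower by this measure. Among the overlapped members, Foxp3 stood at -0.32, Tnfrsf18 at -0.21 and Gm16008 at -0.06. Scaled by TMM factors or by DESeq2 size factors, the median of overlapped genes shifted to 0.16 and 0.27 and that of free genes to -1.02 and -0.90, and Foxp3 then stood at -0.10 and 0.02.

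Of the free members Nrp1 stood at 0.01 and Itgae at 0.40, where 18.9% and 7.90% of free genes were as high or higher. Ctla4 stood at -2.35, but its lowest count in the others was 9, so it was not scored. With a limit of 3 counts, or without replicate 1, Ctla4 was scored and was 1 member lower. Ccdc22, Gm36995 and Ikzf2 had too few counts to score. What sets replicate 4 apart was not tested.

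**Figure D4:**
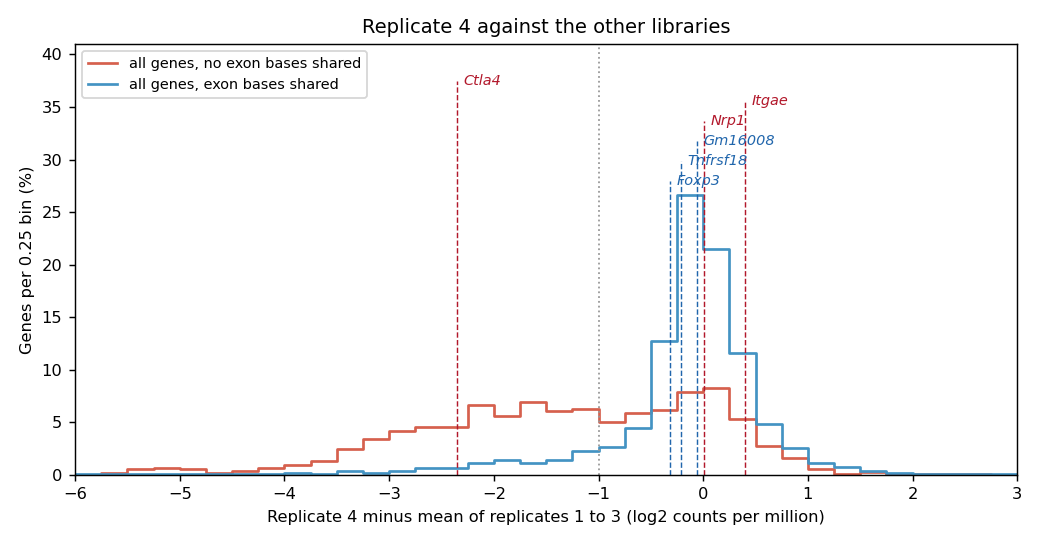
Log2 CPM of replicate 4 minus the mean of replicates 1 to 3, as the percentage of scored genes per 0.25 bin, for free genes (red line) and overlapped genes (blue line). Dashed lines mark members: Ctla4 at -2.35 lies in the lower part of the red distribution, while Nrp1 at 0.01 and Itgae at 0.40 lie in its upper part, and the dotted line is -1.

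Spread between replicates, relative to genes of like abundance, was fitted over 4320 genes. edgeR called 1 gene (0.0231% of those tested), CT010467.1, with a Benjamini-Hochberg adjusted p of 0.0171, and 259 genes had an unadjusted p under 0.05. Of the 9 members 5 passed the expression filter and 0 of these were called. The members were chosen with these counts in view, so nothing is read from that count, and the dispersion over the trend is a description: 0.27 for Foxp3, 0.20 for Tnfrsf18, 0.58 for Gm16008, 0.28 for Nrp1 and 1.10 for Itgae. Ccdc22, Gm36995, Ikzf2 and Ctla4 did not pass the expression filter. With a prior that is not robust, the fit run first on these counts, edgeR called 0 genes and 233 had an unadjusted p under 0.05.

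The profile over the 4 libraries most like that of Foxp3, by Euclidean distance of centred log2 CPM, belonged to Gm16062 (distance 0.029), then Gm15265 (0.032), Agbl5 (0.038), Pde6h (0.039) and ENSMUSG00000100259.1 (0.041), among 4319 genes with a median distance of 0.52. All 5 are overlapped genes, as Foxp3 is. With 4 libraries in 1 group such likeness describes the libraries alone.

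Beyond the members, 113 genes in 5 lists that relate to regulatory T cells were counted, and 56 of them (49.6%) had more than 3 counts in every library. The lists were chosen with earlier results of these data known, so their shares are a description and test nothing. Among free list genes 42 of 90 did, against 13.4% of protein-coding and 6.08% of all genes in that class. Among overlapped ones 14 of 23 did, against 49.1% of protein-coding and 46% of all genes in that class. Replicate 4 was lower by more than 1 in log2 CPM at 22 of 38 scored free list genes and at 7 of 12 overlapped ones, beside the 55.9% and 10.4% above.

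The receptor list held 28 genes, all of them free, and 7 were counted in every library. Cd27, a costimulatory receptor, had 34, 29, 32 and 58 counts, and was highest in replicate 4. Il2ra, the high-affinity interleukin-2 receptor chain CD25 of regulatory and activated T cells, had 61, 110, 76 and 19, and Ccr4, a chemokine receptor of Th2 and regulatory T cells, had 32, 62, 38 and 7. Both of these, and Tnfrsf4 above, had their lowest count in replicate 4.

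Of the transcription factors, 15 of 26 free genes and 6 of 11 overlapped ones were counted in every library. Irf4, a factor of activated T cells, had 115, 143, 114 and 36 counts, Tcf7 had 57, 60, 79 and 23, Batf 16, 11, 13 and 5, and Ikzf1, a relative of Helios, 33, 41, 54 and 13. Each was lowest in replicate 4. Lef1, a relative of Tcf7, had 114, 123, 147 and 196, Gfi1 37, 29, 37 and 33, and Gata3, the defining factor of Th2 cells, 20, 47, 44 and 22.

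Of the effector molecules, 2 of 11 free genes (18.2%, near the 13.4% of free protein-coding genes) and 0 of 2 overlapped ones were counted in every library. Lgals1 had 11, 9, 6 and 8 counts and Tgfb1, which encodes transforming growth factor beta 1, 24, 12, 22 and 10. Capg had 2, 8, 3 and 4. Il10, an inhibitory cytokine, had 1, 0, 0 and 0, and Ebi3, a subunit of interleukin-35, had 0, 10, 6 and 2, while Penk had 0, 0, 2 and 0.

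Interleukin-2 and STAT5 signalling genes were counted in every library in 6 of 10 free genes and 4 of 4 overlapped ones. Il2 had 42, 35, 28 and 4 counts, Il2rb, a receptor chain that signals, 27, 23, 22 and 20, Il2rg 20, 26, 15 and 10, and Mcl1 19, 23, 22 and 8. Jak1 had 34, 57, 36 and 11, Cish 27, 32, 33 and 15, and Stat5a, which carries the interleukin-2 signal to Foxp3, 22, 21, 21 and 7.

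Among the partners and regulators of FOXP3, 12 of 15 free genes and 4 of 6 overlapped ones were counted in every library. Ybx1 had 433, 498, 603 and 421 counts, Dnmt1, the maintenance DNA methyltransferase, 166, 263, 287 and 90, Nono 99, 147, 133 and 37, and Brd9 24, 37, 49 and 26. Stub1, a ubiquitin ligase known to act on FOXP3, had 643, 610, 726 and 656, Kat5, an acetyltransferase, 99, 111, 131 and 132, and Ezh2 49, 58, 73 and 13.

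The 23 overlapped list genes face 24 features, and 19 of these were higher than the list gene in all 4 libraries, as Gm16008 was over Tnfrsf18. Over the coding and antisense pairs of these libraries the share was 704 of 851 (82.7%), so this order was common in these libraries. The 2 sets are not matched. The 851 pairs have at least 50 shared exon bases and a mean summed count of at least 10. The 24 features were not limited in this way, and they include protein-coding genes such as Jmjd8 and an overlap of 4 bases (Raver2 and Jak1). In 2 features the list gene was never lower, as in the Foxp3 locus, and in 3 the order varied. Opposite Cish, Gm17041 had 6435, 7150, 7123 and 7846 counts and Gm17040 had 1762, 1986, 2014 and 2388. Opposite Bcl2, D630008O14Rik had 602, 631, 604 and 679, and opposite Stat5a, Stat3 had 87, 93, 56 and 103. All of these features were higher than the gene they face in every library.

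Opposite transcription factors, Bach2os, facing Bach2, had 1743, 1822, 2044 and 1901 counts, and Gm13256, facing Gata3, had 1364, 1638, 1747 and 2006. Gm43352, facing Lef1, had 707, 806, 918 and 933, and Gm20402, facing Foxo1, had 440, 563, 485 and 1180. Opposite effectors, Gm16712, facing Ebi3, had 586, 506, 562 and 542, and A830012C17Rik, facing Penk, had 5, 6, 1 and 11. Each but A830012C17Rik, which was higher in 3 libraries, was higher than its partner in all 4.

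Opposite the FOXP3 partners, Jmjd8, which faces Stub1, had 3201, 3506, 3281 and 3337 counts, and Gm26625, which faces Ezh2, had 2587, 2482, 2920 and 2601. Rnaseh2c, which faces Kat5, had 889, 836, 969 and 1002, and Slc48a1, which faces Hdac7, had 191, 160, 181 and 224. All 4 were higher in every library than the gene they face.

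**Figure D5:**
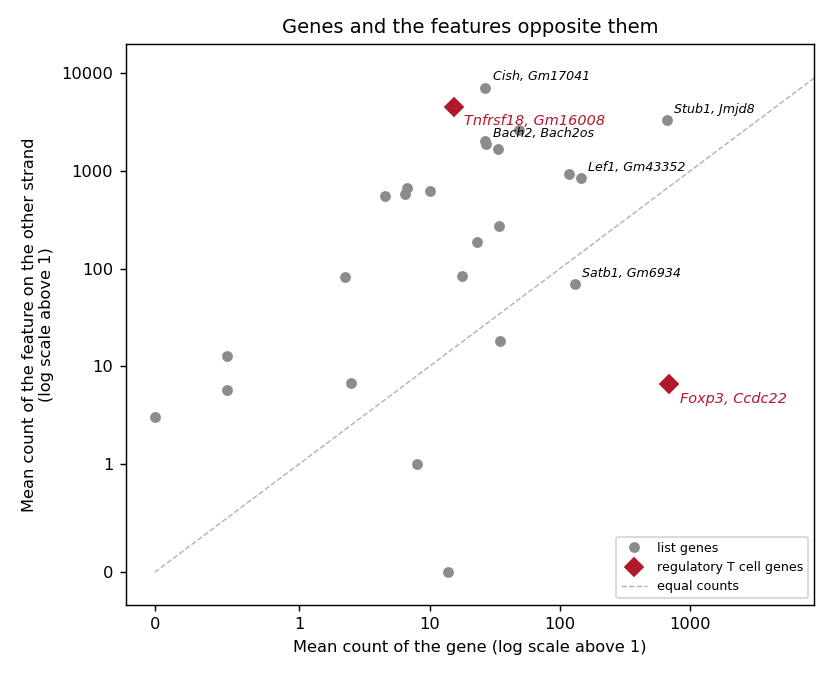
Mean count of each list gene (x axis) and of each feature on the other strand that faces it (y axis), both on a log scale above 1, with the dashed line at equal counts. Red diamonds are Tnfrsf18 with Gm16008 (15.25 and 4488) and Foxp3 with Ccdc22 (689 and 6.50), which lie on opposite sides of the line.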

How the data were processed

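Gene tables of 4 RNA-seq libraries were used. Fragments were counted by the authors, gene by gene, with featureCounts 1.4.6-p4 over GENCODE M13 exons, strand setting 1, with both ends of a fragment aligned, and the deposited values are raw counts, per the file headers. The labels give mm10. The headers name 24 hours, which the labels do not give, and the labels say total RNA while the linked protocol is named for poly(A) RNA.

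The members and lists were chosen with earlier results of these data known. Exons of each gene were merged and compared between strands. TPM was computed from counts and exon lengths, and CPM from total counts. Of 50600 gene IDs, 50376 were matched to GENCODE M21, 50369 of them at an overlapping position. Named genes were the members, the highest by TPM of each list, the features opposite them, the nearest neighbours and the profiles nearest to Foxp3.

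Spread was tested with edgeR 4.0.16 (intercept-only quasi-likelihood fit, TMM factors, upper tail, Benjamini-Hochberg adjustment, threshold 0.05). The fit with the default prior was run first on the real counts, and called 0 genes. Tested afterwards on simulated data, it recovered none of the changed genes. The robust prior, which recovered most of them, was taken after that, with the first result on the real counts known. DESeq2 1.42.0, R 4.3.3 and Python 3.11.15 were also used. Alternatives were other scalings, filters, priors and limits, and each replicate left out in turn.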

Additional observations from a re-analysis of the deposited data

Results flagged for a closer look

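Gm36995, opposite Foxp3, stood at 0.461 CPM in replicate 4 and at 0 in replicates 1 to 3, so the gap of that library to the others was the whole range of the group. The value is 1 fragment, under the limit of 3 counts, and a single fragment beside 3 libraries at 0 always meets this criterion, so the flag carries no more than that fragment.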

How the results depend on the processing

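Spread between replicates was the result most open to its settings. Against 1 gene called, edgeR called 345 when every gene with any count was kept and 8 where the mean CPM had to reach 1. It called 0 with a prior that is not robust, which was the fit run first. CT010467.1 was itself the 1 gene called, and 0 genes were called with it left out of the totals and the fit. Its call could not recur there, so that 0 does not show whether the call depends on the totals. DESeq2 marked 27 dispersion outliers. The robust prior behind the 1 call was taken after the result of that first fit was known. The totals and the fit without CT010467.1 were tried after the data were seen. Leaving out each replicate in turn gave 0 to 18 genes, with 18 without replicate 4 and 0 without replicate 1 or replicate 2. The causes were not tested. The count of members lower in replicate 4 was 0, and 1 (Ctla4) with a limit of at least 3 counts or without replicate 1, a range of 0 to 1 over the replicates left out. The log2 ratio of Tnfrsf18 over Gm16008 was -8.36 per exon base, by the difference in exon length, and it ranged from -8.22 to -8.10 with a replicate left out. The log2 ratio of Foxp3 over Ccdc22 and Gm36995 was 8.24 per exon base, against 7.04 on counts, and ranged from 6.41 to 7.65 with a replicate left out. The value per exon base uses summed full lengths, in which the 2957 bases shared by Ccdc22 and Gm36995 enter for both. Fragments there were counted for neither, so 8.24 is not a ratio per base that could be counted. List genes counted in every library numbered 34 with a limit of more than 10 counts, and 57 to 72 with a replicate left out. All 54 alternative mean TPM values of members were within 1 SD. Means with a replicate left out and medians over the libraries cannot lie further away than that. Only the values with CT010467.1 left out of the total could have done so. No paired analysis was possible because there is 1 group. Gm36995 and Ikzf2 were under the limit of 3 counts in every library, Ccdc22 in replicate 2 and Ctla4 in replicate 4.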
